A study of Mus musculus with 7 samples.

Results

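The genes described here are the colony-stimulating factors and their receptors that tumour-associated macrophages carry: the ligand genes Csf1 and Il34 and the receptor genes Csf1r, Csf2ra, Csf2rb, Csf2rb2 and Csf3r. They were chosen by symbol and number 7 of the 55385 gene IDs in each file. All 7 had enough reads to be tested. RNA was sequenced from macrophages that had been sorted out of gliomas grown in the brains of C57BL/6 mice after injection of 100000 QPP7 cells. In 3 libraries the QPP7 cells carried a hairpin that knocks down Chi3l1 (shChi3l1), and in 4 libraries a control hairpin (shSC). Both hairpins were put into the injected cells and not into macrophages, so knockdown of Chi3l1 itself cannot be checked in these libraries. QPP7 is 1 mouse glioma line, so the comparison rests on a single tumour model. The sources used here give neither the ages of the mice nor the antibodies of the sort. Whether different libraries stem from different mice is not stated, and p-values therefore describe variation among libraries that can in part be technical.

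Colony-stimulating factors are secreted proteins that keep myeloid cells alive and make them divide and mature. CSF-1 and interleukin-34 are unrelated in sequence but bind the same receptor tyrosine kinase, CSF1R, on which macrophages and microglia depend. GM-CSF binds a specific alpha chain, encoded by Csf2ra, paired with a signalling beta chain that it shares with interleukin-3 and interleukin-5, whereas G-CSF acts through the single-chain receptor encoded by Csf3r, best known from neutrophils. In gliomas, CSF1R signalling supports the macrophages and microglia that infiltrate the tumour.

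The libraries held between 19169129 and 36502664 reads assigned to genes. The share of reads in genes with over 5000 exon bases was 12.6%, 20.7% and 18.6% in shChi3l1 libraries 1, 2 and 3, and 14.8%, 19.9%, 16.8% and 19.8% in shSC libraries 1 to 4. Csf1, Csf1r and Csf2rb are the 3 members with over 5000 exon bases, and values with each library's trend with length removed are given beside the results. The sort label was borne out by macrophage markers. All 11 were detected in every library, with sums of 38894 to 55667 CPM (counts per 1e6 reads) in shChi3l1 and 26868 to 40017 CPM in shSC, led by the lysozyme gene Lyz2. Monocyte markers summed to 1086 to 3394 CPM in shChi3l1 and 560 to 2248 CPM in shSC, and lymphocyte markers to 102 to 534 CPM in shChi3l1 and 73.0 to 669 CPM in shSC. Because these are bulk samples, fewer cells of a type and less RNA per cell cannot be told apart.

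Levels of different genes were compared per exon base, in TPM (transcripts per 1e6 transcripts). Csf1r was the highest member in all 7 libraries and ranked between place 114 and place 1535 of all genes. Csf1r averaged 639.7 ± 503 TPM in shChi3l1 and 345 ± 203 TPM in shSC (mean ± SD, here and below over n = 3 shChi3l1 and n = 4 shSC libraries). Csf2ra came next, at 171 ± 147 TPM in shChi3l1 and 145 ± 65.7 TPM in shSC, and was above Csf2rb in 7 of 7 libraries by a median of 3.14-fold. Csf2rb and Csf3r were close neighbours, with 58.6 ± 53.0 and 57.7 ± 45.2 TPM in shChi3l1 and 44.4 ± 24.7 and 31.9 ± 20.8 TPM in shSC. Csf2rb was the higher of this pair in 6 of 7 libraries, shChi3l1 3 being the exception. Csf2rb2 (24.7 ± 23.7 TPM in shChi3l1 and 15.1 ± 8.998 TPM in shSC) exceeded Csf1 (15.9 ± 13.03 TPM in shChi3l1 and 3.96 ± 2.48 TPM in shSC) in 6 of 7 libraries, again except shChi3l1 3. Il34 was lowest in all 7 libraries, at 1.11 ± 1.39 TPM in shChi3l1 and 0.621 ± 0.523 TPM in shSC. The receptors were thus above both ligands, apart from Csf2rb2 in shChi3l1 3.

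**Figure D1:**
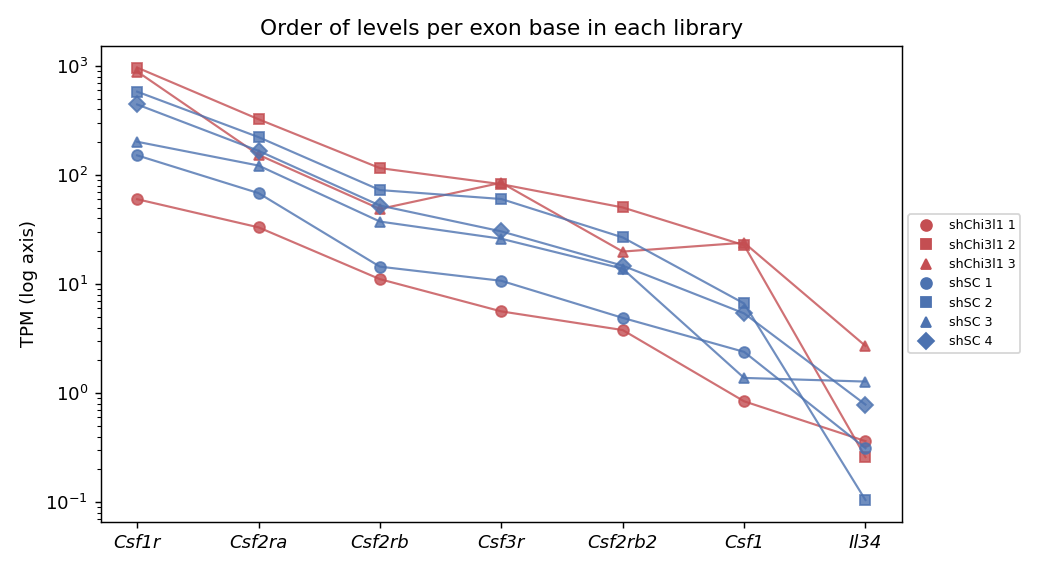
TPM on a log axis for the 7 genes, ordered by mean level, with 1 line per library (shChi3l1 red, shSC blue). The lines run nearly parallel through the 5 receptors, with Csf1r highest and Il34 lowest in every library, except that shChi3l1 3 climbs at Csf3r and Csf1, and the order of the libraries changes at Csf1 and Il34.

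Csf1 (ENSMUSG00000014599.10, mm10 chromosome 3, 107741048 to 107760469, minus strand, 5281 exon bases) encodes CSF-1, the main survival factor of macrophages, and showed the largest difference among the members. It had 3.19, 56.2 and 58.1 CPM in shChi3l1 libraries 1, 2 and 3, and 7.30, 14.5, 3.38 and 11.1 CPM in shSC libraries 1 to 4. ShChi3l1 libraries 2 and 3 lay above all shSC libraries, but shChi3l1 1 was the lowest of the 7, so the groups overlapped. These values rest on 75 to 1892 reads. The log2 fold change was 2.11 (SE 0.83) and did not pass the threshold of 0.05 (edgeR adjusted p = 0.9998). Csf1 was the only member with an unadjusted p under 0.05 in edgeR's test, at 0.0311, against 1.48% of all tested genes. The share of reads in long genes was lowest in shChi3l1 1 and was 18.6% and 20.7% in the libraries highest in Csf1. It was 19.9% and 19.8% in shSC 2 and 4, which had 14.5 and 11.1 CPM of Csf1. Coverage of long genes as a cause of the Csf1 values was not tested. With each library's trend with transcript length removed, Csf1 stood at 3.97, 46.9 and 52.4 CPM in shChi3l1 and 3.55 to 12.5 CPM in shSC, and its log2 fold change was 1.95 (SE 0.72). Endothelial, pericyte and fibroblast markers, from cell types that also make CSF-1, summed to 15.1, 28.7 and 76.2 CPM in shChi3l1 and to between 15.8 and 44.6 CPM in shSC. Of these 10 markers, 6 to 9 were detected in shChi3l1 and 5 to 10 in shSC libraries, and their part in the Csf1 values was not tested.

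Il34 (ENSMUSG00000031750.15, chromosome 8, 110741829 to 110805924, minus strand) encodes interleukin-34, the second CSF1R ligand, which in brain comes mainly from neurons. Its counts were low, with 12, 8 and 60 reads in shChi3l1 and 10, 3, 34 and 14 reads in shSC. This came to 0.511, 0.238 and 2.44 CPM in shChi3l1 against 0.355, 0.0847, 1.16 and 0.602 CPM in shSC. ShChi3l1 3 was the highest, the other shChi3l1 libraries lay within the shSC range, and at this depth no difference was detectable. The log2 fold change of 0.94 (SE 1.01, edgeR adjusted p = 0.9998) became -0.56 without shChi3l1 3. Neuron markers summed to 21.7, 5.56 and 6.79 CPM in shChi3l1 and to between 3.08 and 17.8 CPM in shSC. Of these 7 markers, 5 were at 0 in at least 1 library, and the part of neurons in the Il34 values was not tested. Noncoding genes overlap 5.0% of the exon bases of Il34.

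Csf1r (ENSMUSG00000024621.16, chromosome 18, 61100598 to 61132149, plus strand, 5774 exon bases) encodes the receptor of both ligands. It had 249, 2613 and 2359 CPM in shChi3l1 libraries 1 to 3, and 506, 1386, 540.3 and 1002 CPM in shSC libraries 1 to 4. As with Csf1, shChi3l1 libraries 2 and 3 exceeded every shSC library and shChi3l1 1 fell below them all. The spread inside the shChi3l1 group was 10.5-fold, against 2.74-fold inside the shSC group. The log2 fold change was 1.02 (SE 0.71, edgeR adjusted p = 0.9998), 1.51 without shChi3l1 1 and 0.60 without shChi3l1 2. Another gene, Hmgxb3, overlaps 15.1% of the exon bases of Csf1r, and the counts cannot assign reads there with certainty.

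**Figure D2:**
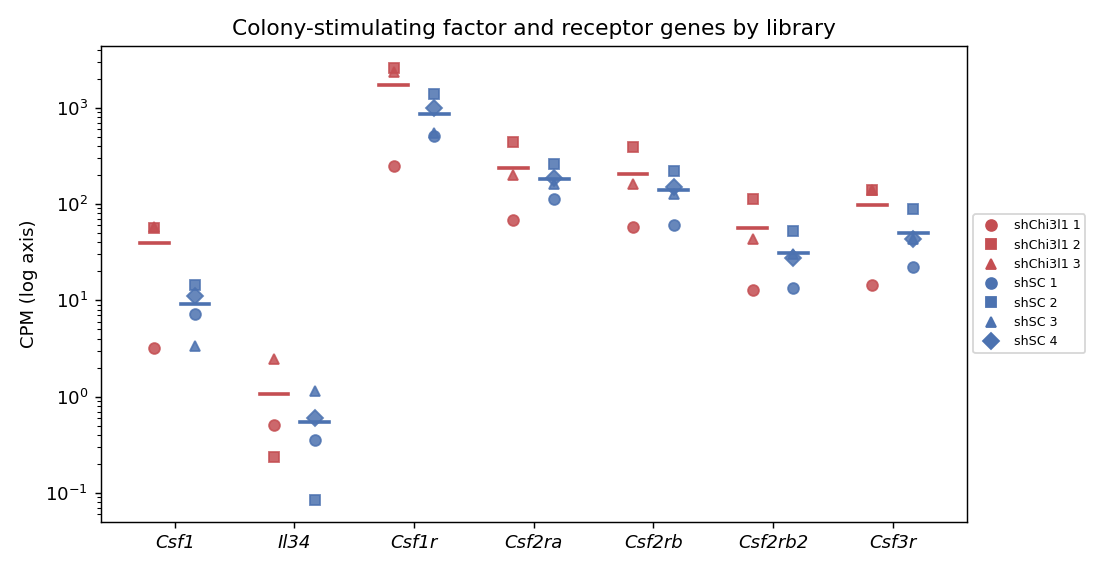
CPM on a log axis for each gene, with shChi3l1 (red) left of shSC (blue), 1 point per library with its replicate number given by shape, and a bar at the group mean. Values are to be compared within a gene, and the red points spread wider than the blue for every gene but Il34, with shChi3l1 1 lowest for all but Il34.

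The 11 macrophage markers were set beside Csf1r, outside the rule for named genes, and they differed in which libraries were low. The complement gene C1qa, with 1040 exon bases, had 4522, 3705 and 4172 CPM in shChi3l1 and 3852, 2650, 3795 and 1806 CPM in shSC, and so was highest in the library with least Csf1r. Cd68, encoding a lysosomal protein and with 1257 exon bases, had 610.4, 1379 and 722 CPM in shChi3l1 and 688, 1063, 930.4 and 839 CPM in shSC, and was lowest in that same library. Ptprc, encoding CD45 and with 18313 exon bases, had 64.7, 419 and 194 CPM in shChi3l1 and 61.6, 301, 119 and 219 CPM in shSC. Ptprc, like the receptors, was lowest in shSC 1 and shChi3l1 1, but CD45 is not particular to macrophages among leukocytes. Mertk repeated the Csf1r pattern, with 13.9, 105 and 107 CPM in shChi3l1 and 18.4, 57.9, 18.5 and 47.0 CPM in shSC. Adgre1 was lowest in shChi3l1 1, at 173 CPM, but stood at 505 CPM in shSC 1. Itgam was lowest in shSC 1 and shChi3l1 1, at 10.1 and 11.5 CPM. Aif1 and Fcgr1 were instead highest in these libraries, at 1356 and 629 CPM in shSC 1 and 1542 and 548 CPM in shChi3l1 1. C1qb was highest in shChi3l1 1, at 9705 CPM. C1qc was lowest in shSC 4, at 3923 CPM, and Lyz2 in shSC 1, at 10458 CPM. With the length trend removed, Csf1r was at 315, 2135 and 2106 CPM in shChi3l1 and between 576 and 1182 CPM in shSC, with a log2 fold change of 0.87 (SE 0.59, edgeR adjusted p = 1.00). ShChi3l1 1 remained the lowest library on that scale.

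Microglia, the resident macrophages of the brain, also depend on CSF1R. All 8 microglia markers were detected in every library, and summed to 958, 1660 and 3716 CPM in shChi3l1 and to 1310, 1008, 873 and 754 CPM in shSC. Their log2 fold changes were positive for 8 of 8 with a median of 2.01, and 0 passed in edgeR's test, although 5 had an unadjusted p under 0.05, against 1.48% of all tested genes. Each of the 8 was highest in shChi3l1 3, as for P2ry12, with 20.2, 91.4 and 488 CPM in shChi3l1 and 21.2, 41.0, 25.6 and 21.1 CPM in shSC. ShChi3l1 3 and 2 had both the highest sums and the most Csf1r and Csf1. ShChi3l1 3 had a higher sum than shChi3l1 2 but less Csf1r, at 2359 against 2613 CPM. ShSC 1 had the highest sum of the shSC libraries, at 1310 CPM, but the least Csf1r of them, at 506 CPM. The part of microglia in these values was not tested.

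Csf2ra (ENSMUSG00000059326.7, chromosome 19, 61223957 to 61228429, minus strand, 2871 exon bases) encodes the alpha chain that gives the GM-CSF receptor its specificity. It had 68.3, 436 and 202 CPM in shChi3l1, and 113, 264, 163 and 187 CPM in shSC. ShChi3l1 2 and 1 were the highest and lowest libraries, with shChi3l1 3 inside the shSC range. The log2 fold change of 0.37 (SE 0.57, edgeR adjusted p = 0.9998) turned to -0.43 without shChi3l1 2. Removal of the length trend left it at 65.3, 453 and 202 CPM in shChi3l1 and 120.4 to 253 CPM in shSC. Dendritic cells, which also respond to GM-CSF, had all 7 markers detected in every library. These summed to 670, 575 and 864 CPM in shChi3l1 and to 229, 1062, 1347 and 267 CPM in shSC. Ccr7 made up most of each sum, with 1157 CPM in shSC 3, where Csf2ra was at 163 CPM. Of the other markers, Xcr1 was also highest in shSC 3. Flt3, Zbtb46 and Itgae were highest in shSC 2, Clec9a in shSC 1 and Cd209a in shChi3l1 1. The part of dendritic cells in the Csf2ra values was not tested.

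Csf2rb (ENSMUSG00000071713.6, chromosome 15, 78325752 to 78353847, plus strand) encodes the common beta chain, and Csf2rb2 (ENSMUSG00000071714.7, chromosome 15, 78282507 to 78305721, minus strand) a close copy that in mice serves interleukin-3 alone. The 2 genes lie next to each other on opposite strands. Their longest coding sequences in GENCODE release M21 have 2688 and 2634 bases, and 2503 of 2628 aligned bases, or 95.2%, were identical. A run of 242 bases was the same in both, and 26.0% of all windows of 50 coding bases of Csf2rb also occurred in Csf2rb2, so that reads from such windows can be misassigned. The first 120 aligned bases of the longest coding exon, which encodes part of the intracellular tail, are shown 5′ to 3′ to let the copies be compared, with the 5 bases that differ in capitals (mm10, chr15:78348072-78348191, plus strand, for Csf2rb and chr15:78285260-78285379, minus strand, for Csf2rb2).
Csf2rb: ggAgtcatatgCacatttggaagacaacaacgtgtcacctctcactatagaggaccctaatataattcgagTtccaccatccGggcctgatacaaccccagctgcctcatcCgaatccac
Csf2rb2: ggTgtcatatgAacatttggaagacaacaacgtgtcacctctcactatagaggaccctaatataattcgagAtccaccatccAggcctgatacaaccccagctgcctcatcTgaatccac

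Both beta-chain genes varied between libraries alike. Csf2rb had 58.0, 394 and 163 CPM in shChi3l1, and 60.8, 219, 126 and 149.5 CPM in shSC. Csf2rb2 had 12.9, 112 and 43.3 CPM in shChi3l1, and 13.4, 52.4, 30.4 and 27.3 CPM in shSC. In each gene shChi3l1 2 was the highest and shChi3l1 1 the lowest, with shChi3l1 3 inside the shSC range. The log2 fold changes were 0.56 (SE 0.63) for Csf2rb and 0.86 (SE 0.67) for Csf2rb2, with an edgeR adjusted p of 0.9998 for both. Without shChi3l1 2 they were -0.33 and -0.14. With the length trend removed, Csf2rb was at 75.7, 309 and 144 CPM in shChi3l1 and 89.3 to 181 CPM in shSC, with a log2 fold change of 0.40 (SE 0.48). With the reads of the copies summed to 1 gene, which removes misassignment between them, the log2 fold change was 0.62 (SE 0.64, edgeR adjusted p = 0.9998), and -0.30 without shChi3l1 2.

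The share of the pair's reads that fell on Csf2rb2 does not depend on the library total. It was 18.2% (95% Wilson interval 16.4 to 20.1), 22.1% (21.5 to 22.7) and 21.0% (19.9 to 22.1) in shChi3l1 libraries 1 to 3. In shSC libraries 1 to 4 it was 18.1% (16.5 to 19.8), 19.3% (18.6 to 20.1), 19.4% (18.3 to 20.6) and 15.5% (14.4 to 16.6). The intervals cover counting error only, since amplified reads are not independent molecules. Shares averaged 20.4% ± 2.01 in shChi3l1 and 18.1% ± 1.84 in shSC (mean ± SD), with p = 0.171 in an exact two-sided permutation test. The smallest p that 3 libraries against 4 allow is 0.0571. The difference of 2.35 percentage points was 1.48 without shSC 4, which is also the mean within same-numbered pairs, and 1.50 without shChi3l1 2. The share of reads on Csf2rb2 thus ranged from 15.5% to 22.1%, while CPM of Csf2rb and Csf2rb2 ranged over 6.80-fold and 8.68-fold. It is a share of reads and not of transcripts, because Csf2rb has 7277 exon bases and Csf2rb2 4740.

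Csf3r (ENSMUSG00000028859.14, chromosome 4, 126024550 to 126044440, plus strand, 3609 exon bases) encodes the G-CSF receptor. It had 14.6, 139 and 141 CPM in shChi3l1 libraries 1 to 3, and 22.4, 89.8, 43.6 and 43.0 CPM in shSC libraries 1 to 4. Its pattern was that of Csf1r, with shChi3l1 2 and 3 above all shSC libraries and shChi3l1 1 below them. The log2 fold change was 0.98 (SE 0.71, edgeR adjusted p = 0.9998), 1.47 without shChi3l1 1, 0.64 without shChi3l1 2 and 0.64 without shChi3l1 3. Neutrophils, the cells with most G-CSF receptor, left few transcripts. Their 11 markers summed to 74.2, 9.33 and 8.17 CPM in shChi3l1 and to 23.4, 37.7, 13.6 and 26.0 CPM in shSC, and the neutrophil surface gene Ly6g was at or below 0.213 CPM in every library. Of these markers, 8 were at 0 in at least 1 library. The marker sum was highest where Csf3r was lowest, in shChi3l1 1, with most of it from the single gene S100a8 at 67.4 CPM. Another marker, Retnlg, was highest in shSC 2, at 24.0 CPM, where Csf3r was at 89.8 CPM. The part of neutrophils in the Csf3r values was not tested.

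Across the 5 receptor genes the libraries fell into nearly the same order. ShChi3l1 2, shChi3l1 3 and shSC 2 were the 3 highest for all 5, and shSC 1 and shChi3l1 1 were the 2 lowest for all 5. Differences between libraries of the same hairpin were thus shared by the receptors. Their order matched the share of reads in long genes in part, because shSC 4, at 19.8%, stood above shChi3l1 3, at 18.6%.

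Promoter sequence is shown for 4 of the 7 members (RefSeq, GRCm38.p6). The promoter set held no entry under the symbols Csf2rb and Il34, and Csf1r was left out by choice. Matches to GAGGAA, a sequence bound by the myeloid factor PU.1, are in capitals, as TTCCTC where the match is on the other strand. Only this sequence was searched, and not the shorter GGAA within it. Each line gives the 250 bases before the RefSeq start, 5′ to 3′ on the gene's strand: Csf1, chr3:107760470-107760719, minus; Csf2ra, chr19:61228419-61228668, minus; Csf2rb2, chr15:78305722-78305971, minus; Csf3r, chr4:126024409-126024658, plus.
Csf1: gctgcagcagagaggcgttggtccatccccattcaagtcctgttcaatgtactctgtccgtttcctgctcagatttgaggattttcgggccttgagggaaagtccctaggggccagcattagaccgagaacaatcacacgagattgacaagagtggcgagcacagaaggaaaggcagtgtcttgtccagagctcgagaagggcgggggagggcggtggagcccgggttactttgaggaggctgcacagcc
Csf2ra: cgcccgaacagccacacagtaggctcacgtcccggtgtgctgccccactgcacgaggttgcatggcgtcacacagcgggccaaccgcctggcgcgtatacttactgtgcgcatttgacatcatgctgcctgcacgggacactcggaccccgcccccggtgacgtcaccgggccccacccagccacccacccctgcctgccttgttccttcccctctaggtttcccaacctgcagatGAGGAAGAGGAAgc
Csf2rb2: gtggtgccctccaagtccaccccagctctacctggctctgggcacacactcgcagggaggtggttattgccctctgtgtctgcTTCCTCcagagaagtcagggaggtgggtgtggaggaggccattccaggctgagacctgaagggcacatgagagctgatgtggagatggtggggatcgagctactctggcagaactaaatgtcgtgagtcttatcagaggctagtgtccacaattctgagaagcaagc
Csf3r: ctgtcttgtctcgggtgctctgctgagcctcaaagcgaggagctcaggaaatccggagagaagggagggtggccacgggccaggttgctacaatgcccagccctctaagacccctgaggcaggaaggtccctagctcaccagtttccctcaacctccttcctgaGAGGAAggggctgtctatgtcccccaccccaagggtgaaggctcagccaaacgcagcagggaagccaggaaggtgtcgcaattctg

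The 3 receptor promoters shown each hold GAGGAA and that of Csf1 does not, while 23.3% of 32851 mouse promoters of that length hold it on either strand. Of the other receptor genes, Csf1r was left out by choice and Csf2rb had no entry. The receptors as a set are therefore not compared with that share, and the 3 shown cannot stand for them. A part of GAGGAA in the levels of these genes was not tested. In Csf2ra there are 2 copies, beginning at -14 and -8 from the start. The single copies of Csf2rb2 and Csf3r begin at -167 and -86. The counted gene models start Csf3r and Csf2ra inside these windows. The Csf3r copy and the Csf2ra copy at -8 therefore lie wholly within the counted genes, and the Csf2ra copy at -14 in part. A match is a description of the letters and not a binding site.

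Libraries with the same replicate number were then compared within pairs, as the labels pair replicates 1 to 3. In pair 1, Csf1, Csf1r, Csf2ra and Csf3r were lower in shChi3l1, with log2 differences of -1.19, -1.02, -0.73 and -0.62, while Csf2rb and Csf2rb2 differed by -0.07 and -0.06. In pair 2 all 7 members were higher in shChi3l1, by 1.96 for Csf1, 1.35 for Il34, 0.91 for Csf1r and 0.63 to 1.09 for the others. In pair 3 all 7 were again higher, by 4.10 for Csf1, 2.13 for Csf1r, 1.69 for Csf3r, 1.06 for Il34 and 0.31 to 0.51 for the others. Only Il34, with 3 to 60 reads a library, had the same sign in all 3 pairs. Pair 1, both of whose libraries had the smallest shares of reads in long genes, thus differed in sign from the other pairs in 6 of 7 members. A fit with the replicate number as a block gave log2 fold changes from 0.11 (SE 0.32) for Csf2ra to 1.72 (SE 1.06) for Csf1, each with an edgeR adjusted p of 1.00.

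**Figure D3:**
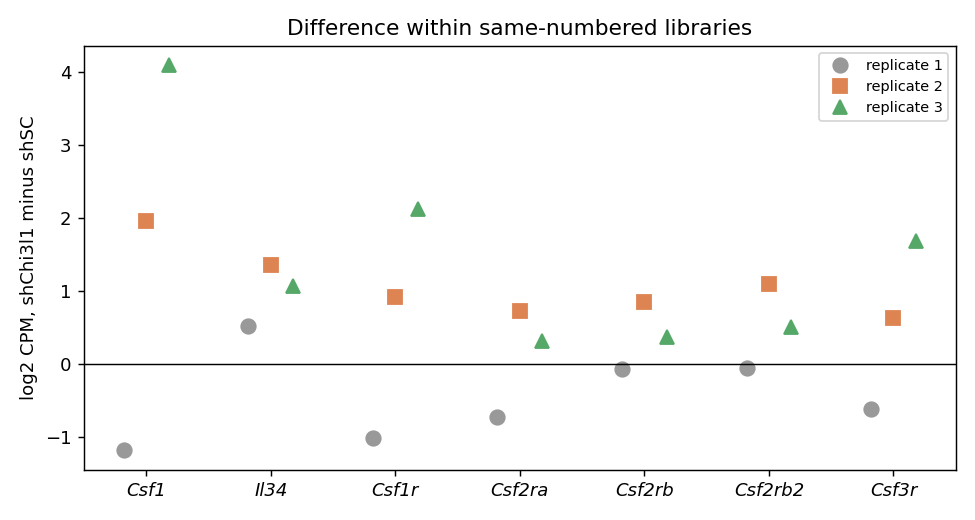
Difference in log2 CPM, shChi3l1 minus shSC, within each same-numbered pair for the 7 genes. Replicate 1 lies below 0 for all but Il34, and replicates 2 and 3 lie above 0 for all 7, up to 4.10 for Csf1.

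Seen over the group, all 7 members had positive log2 fold changes, with a median of 0.94, and none passed. For comparison, 8895 of 15448 tested genes had positive fold changes, with a median of 0.07. In none of the 7 did the groups fail to overlap, where 1.24% of all genes lay wholly higher and 1.25% wholly lower in shChi3l1. The edgeR quasi-likelihood test called 0% of the 15448 genes, although 229 had an unadjusted p under 0.05. DESeq2 called 1 gene, not a member, and limma's voom 0, with 350 and 713 genes at an unadjusted p under 0.05. The highest library was shChi3l1 2 or 3 for each member, and leaving out shChi3l1 2 gave 3 of the 7 a negative sign.

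**Figure D4:**
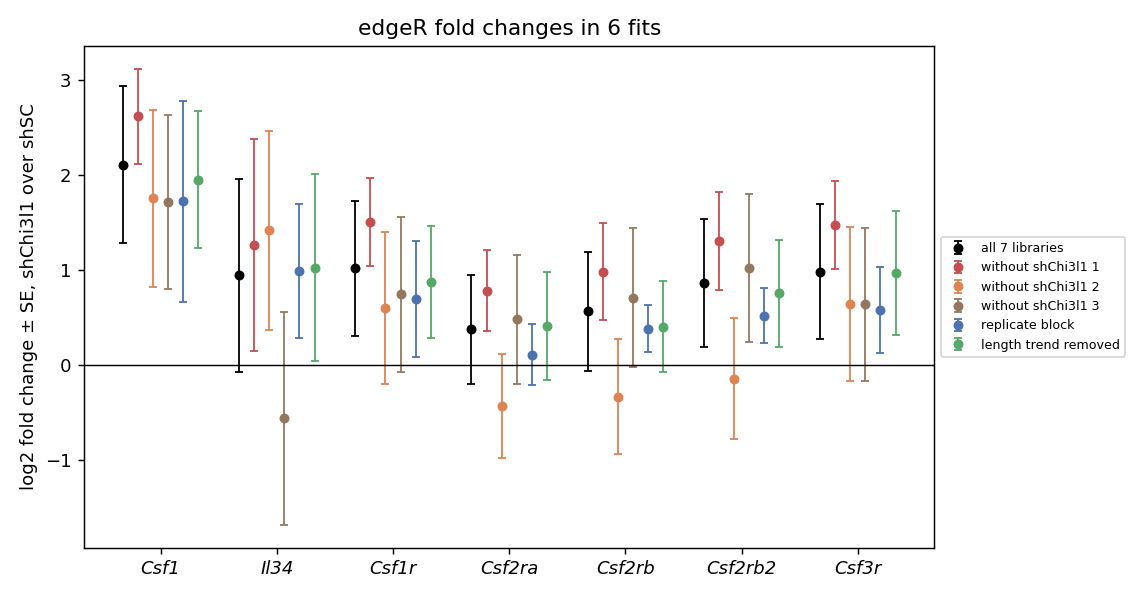
Log2 fold change of shChi3l1 over shSC with its standard error for each gene in 6 fits, including those without each shChi3l1 library. Values without shChi3l1 1 are above those from all 7 libraries, and those without shChi3l1 2 fall below 0 for Csf2ra, Csf2rb and Csf2rb2.

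Ligand and receptor were also set against each other inside each library. Csf1r exceeded Csf1 by 71.3-fold, 42.5-fold and 37.1-fold in TPM in shChi3l1 libraries 1 to 3, and by 63.3-fold, 87.5-fold, 146-fold and 82.3-fold in shSC libraries 1 to 4. The shChi3l1 libraries 2 and 3 had most ligand relative to receptor, with shChi3l1 1 inside the shSC range. The log2 ratio of Csf1 to Csf1r averaged -5.59 ± 0.49 in shChi3l1 and -6.49 ± 0.50 in shSC (mean ± SD). For the difference of 0.90, the exact permutation test (two-sided) gave p = 0.114, which was 0.171 after Benjamini-Hochberg adjustment over this ratio and the beta-chain share, 2 tests in all. Csf1 and Csf1r have 5281 and 5774 exon bases. Within pairs 1, 2 and 3 the differences were -0.16, 1.04 and 1.97.

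**Figure D5:**
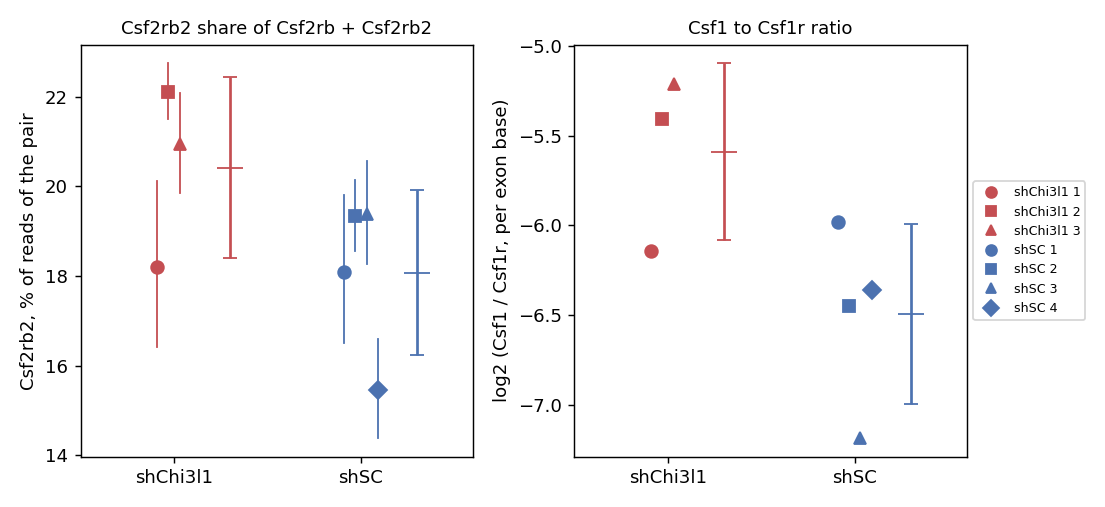
Left, percent of the reads of Csf2rb and Csf2rb2 that fell on Csf2rb2, with 95% Wilson intervals; right, log2 ratio of Csf1 to Csf1r per exon base; 1 point per library, with the group mean and SD beside them. In both panels shChi3l1 2 and 3 are above every shSC library and shChi3l1 1 is inside the shSC range.

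Other ligands and receptors of the family were below Csf1r in every library in TPM, but not all were below Csf1. In shSC, Csf2, Csf3, Il3ra and Sdc1 averaged 6.63, 8.86, 6.95 and 8.19 TPM, against 3.96 TPM for Csf1. In shChi3l1 they averaged 5.09, 2.93, 8.42 and 17.5 TPM, against 15.9 TPM for Csf1. Csf2, encoding GM-CSF, had 4.17, 2.82 and 0.163 CPM in shChi3l1 and 1.38, 3.53, 2.05 and 2.28 CPM in shSC. Csf3, encoding G-CSF, had 45, 142 and 8 reads in shChi3l1 and 103, 18, 0 and 386 reads in shSC. The ligands of the receptors above were therefore present as RNA at scattered levels. Csf3 was highest in shSC 4, at 30.1 TPM, where Csf3r stood at 30.5 TPM. Il3 had at most 10 reads and Il5 at most 5 in any library, and the interleukin-5 receptor gene Il5ra had 46 and 3 reads in shSC 2 and 3 and none elsewhere. Il3ra, the interleukin-3 receptor alpha chain gene, had 10.3, 15.2 and 12.9 CPM in shChi3l1 and 8.16, 11.5, 14.7 and 3.40 CPM in shSC. Surface proteoglycans reported as further partners of interleukin-34 differed in pattern. Sdc1, encoding syndecan-1, had 21.0, 51.8 and 27.3 CPM in shChi3l1 and 3.26, 22.7, 13.3 and 13.7 CPM in shSC. Ptprz1, also a glial gene, had 12.8, 3.51 and 0.447 CPM in shChi3l1 and 1.88, 4.09, 2.29 and 37.8 CPM in shSC libraries 1 to 4. Its highest value was in shSC 4, the library with the highest sum of tumour and glial markers at 259 CPM. The 5 tested genes of these 8 gave 3 positive and 2 negative fold changes, and none passed (edgeR adjusted p = 0.9998 for each).

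Genes that act downstream of the receptors or drive their transcription did not pass the test. Of 20 adaptors, kinases and phosphatases downstream of CSF1R, 18 had positive and 2 negative log2 fold changes, with a median of 0.23, and 0 passed. Grb2, the adaptor that links the receptor to Ras, had 157, 123 and 87.9 CPM in shChi3l1 and 84.5, 80.0, 80.8 and 48.1 CPM in shSC, with a log2 fold change of 0.74 (SE 0.34). Its groups did not overlap, which held for 1 of the 20 genes and, in the same direction, for 1.24% of all tested genes. It was highest in shChi3l1 1. The GTPase gene Rac1 was at 0.55 (SE 0.32), where Daglb overlaps 51.4% of exon bases, and the kinase gene Src at 0.86 (SE 0.60).

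Of 16 JAK-STAT and feedback genes, which serve the GM-CSF and G-CSF receptors, 13 had positive and 3 negative fold changes, with a median of 0.26, and 0 passed. The survival kinase gene Pim1 was at 0.27 (SE 0.29) and Jak2, whose kinase binds these receptors, at -0.42 (SE 0.50). Among 12 transcription factors of the myeloid lineage, 10 were positive and 2 negative, with a median of 0.13, and 0 passed. Cebpa, a factor needed for expression of the G-CSF receptor, had 18.6, 39.5 and 32.0 CPM in shChi3l1 and 16.8, 19.8, 13.1 and 10.4 CPM in shSC, a log2 fold change of 1.00 (SE 0.38, edgeR adjusted p = 0.9998). The immediate-early gene Egr1 was at 0.87 (SE 0.45) and Cebpb, with 20.7% of exon bases shared with Tmem189, at 0.26 (SE 0.34).

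Genes whose log2 CPM followed each member most closely over the 7 libraries were drawn from 5062 or 5063 candidates. For Csf1r these were Icam1, Atp2c1 and Pik3cg, with Pearson r of 0.997, 0.996 and 0.994, and 550 candidates exceeded 0.9. Csf2ra was closest to Ctsa, Itgax and Sidt2 (0.993, 0.990 and 0.988), and Csf2rb to Fam3c, Camta2 and Itgax (0.993, 0.992 and 0.988). Csf2rb2 was close to D17Wsu92e and Dcaf8 (0.999 and 0.992), and Csf3r was closest to Ski, Nploc4 and Ubash3b (0.997, 0.993 and 0.992). Between 391 and 583 candidates exceeded 0.9 for each receptor, so the receptors' pattern was a common one in these libraries. Csf1 was closest to Hps5, Slc16a6 and Ppp2r1b (0.992, 0.986 and 0.973), with 108 candidates above 0.9. Il34 had 1 such candidate, the immediate-early gene Fos, at 0.959, followed by Tnip2 and Ankrd10 at 0.858 and 0.840. The libraries share depth and length coverage across these genes, and r is given as a measure of likeness only.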

How the data were processed

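The deposited files hold whole-number counts per gene, with exon coordinates and lengths, 1 file per library. Trim Galore, HISAT2, featureCounts and build mm10 appear in the submitters' processing notes without versions. The sources used here do not give their settings or the annotation that was counted. Per the labels' protocols, macrophages were sorted after collagenase digestion, and libraries were made with a low-input SMART-Seq kit and Nextera XT. That chemistry does not mark strand, so reads of overlapping genes cannot be told apart. Of the 55385 IDs, 55144 took symbols from GENCODE mouse release M21, ignoring version.

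The test was the robust quasi-likelihood F test of edgeR 4.0.16 (R 4.3.3), with hairpin as the only term over 7 libraries. TMM factors and filterByExpr with a count minimum of 10 came first, and p-values were corrected after Benjamini and Hochberg for 15448 genes. Standard errors come from the F statistic. CPM use TMM-scaled totals, and TPM are counts per exon base scaled to 1e6 per library, from the deposited lengths. Logarithms had 0.5 added to counts. Alternatives were other scalings, no filter, DESeq2 1.42.0, limma 3.58.1 voom with quality weights, each library left out, the replicate block, and removal of each library's loess trend (span 0.5) with exon length. Leaving out shChi3l1 1 together with that trend was added after the data had been seen. The fit was tested on simulated counts. Changes were put only into genes whose mean CPM had a log2 of at least 2, so the rates do not cover Il34. The fit called 0% of 2-fold, 38% of 4-fold, 76% of 8-fold and 96% of 16-fold changes there. A gene that did not pass can therefore still differ between the hairpins.

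The labels pair replicates 1 to 3 in a figure. Deviations from group means correlated at 0.306, 0.26 and 0.188 within same-numbered pairs, above the limit of 0.1, so the numbers were taken to pair them. Differently numbered libraries also passed it, with 0.322 for shChi3l1 3 and shSC 2, the highest of all, and 0.2 for shChi3l1 2 and shSC 4. The reported fold changes have no block, and the blocked fit leaves out shSC 4. The 2 values per library, the Csf2rb2 share and the Csf1 to Csf1r ratio, had exact permutation tests. Named genes were the 7 members, the other ligands and receptors of the family, 3 genes of smallest p from each pathway list, and the 3 most alike genes of each member, sought among those averaging 4 or more in log2 CPM. Some genes that this rule names are not reported here. Alignments used Biopython 1.88. Members and lists were chosen with earlier results of these data known.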

Additional observations from a re-analysis of the deposited data

How the results depend on the processing

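No fold change passed an adjusted p of 0.05 under any alternative run, the smallest being 0.75. Of 155 values of members and ratios under alternatives, 149 kept their direction and 6 reversed. With 1 library left out in turn, the log2 fold change ranged from 1.72 to 2.62 for Csf1, -0.56 to 1.55 for Il34, 0.60 to 1.51 for Csf1r, -0.43 to 0.78 for Csf2ra, -0.33 to 0.98 for Csf2rb, -0.14 to 1.30 for Csf2rb2, 0.64 to 1.47 for Csf3r and -0.30 to 1.04 for the summed beta chains. The negative values came without shChi3l1 2 for the GM-CSF receptor chains and without shChi3l1 3 for Il34. With both shChi3l1 3 and shSC 4 left out, Il34 was at -0.52. The difference in Csf2rb2 share ranged from 1.48 to 3.46 percentage points and that in the log2 ratio of Csf1 to Csf1r from 0.67 to 1.18. Genes called numbered 0 with edgeR and voom and 1 with DESeq2, and the cause was not tested. The replicate block changed no call, with log2 fold changes of 0.70 for Csf1r and 0.58 for Csf3r and a share difference of 1.48. Without the length trend and shChi3l1 1, Csf1 was at 2.48 (edgeR adjusted p = 0.821) and Csf1r at 1.35. Il34 had 3 to 60 reads a library and also the widest spread within shSC, at 13.7-fold against at most 4.29-fold for the other members.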
